A study of Mus musculus with 12 samples.

Results

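The libraries compared were 8 of the 12 in the series: all those made from brain astrocytes captured with magnetic beads against the surface antigen ACSA-2. Genotype labels put them in 2 groups of 4 mice, KO (mice 60, 62, 73 and 132) and WT (mice 56, 57, 64 and 78). The other 4 libraries, from cells that the beads did not bind in mice KO 60, KO 132, WT 56 and WT 64 (flowthrough), entered only 1 alternative fit, of all 12 libraries. Both groups carried the strain label Bmal fl/fl; ALDH1L1-CreERT2 on a C57BL\6 background, with loxP-flanked Bmal1 alleles. KO mice were Cre+ and WT mice Cre-. At 2 months old all of them were gavaged with tamoxifen (2 mg daily over 5 days), which switches the Cre on. At 20 months the brains were dissociated with collagenase and cleared of debris before capture, RNA was purified with Trizol and a PureLink kit, and libraries were made with SMARTer v1. Because the Cre is expressed from the promoter of Aldh1l1, an astrocyte gene, deletion is targeted to astrocytes. The controls thus shared the floxed alleles and the drug but not the Cre. Each library is numbered by mouse in its title and the labels say no more of how the mice relate, so p-values measure the spread between these libraries. All values below are for captured cells in bulk, so fewer cells of a type and less RNA per cell cannot be told apart.

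BMAL1, encoded by Arntl, pairs with CLOCK or NPAS2 and activates genes that carry E-box sites, among them the PER and CRY repressors that shut the pair down again. The REV-ERB receptors, also activated through E-boxes, repress Arntl, Npas2, Cry1 and Nfil3 and close a second loop. In the brain, astrocytes run this clock beside neurons, and they also clear transmitter, supply lipids, store glycogen and secrete matrix and signalling proteins.

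Total counts were 44661924 to 49388569 per KO library and 38691406 to 50120754 per WT library, and 3 counts, the floor used here, corresponded to 0.0599 to 0.0775 counts scaled to the library total (CPM). The floor covers counting error only. Astrocyte identity markers were abundant in every library, summing to 16600 to 31700 CPM in KO and 24200 to 31700 CPM in WT over 24 genes, with none at 0. The lowest sum, 16600 CPM, was that of KO 73, where the KO median was 29200 CPM and the WT median 28100 CPM. Markers of other cells were present too. Oligodendrocyte markers (20 genes) summed to 28000 to 39100 CPM in KO and 22800 to 27200 CPM in WT, so the groups did not overlap. Microglia markers (20 genes) ranged from 1150 to 5260 CPM in KO and from 1140 to 2200 CPM in WT. Library KO 73 stood apart: it had the highest sum for 8 of the 16 marker lists, microglia, choroid plexus, ependymal, neutrophil, lymphocyte, border macrophage, endothelial and fibroblast markers. WT 78 had the lowest sum for microglia, choroid plexus, ependymal, neutrophil, endothelial, oligodendrocyte precursor, pericyte and blood markers, and the highest for astrocyte identity markers. Mitochondrial counts made up 12.6% (KO 73) to 17% (KO 60) of the total in KO. In WT 56, 57, 64 and 78 they made up 13.7%, 21.3%, 15.2% and 21.4%. In each group Xist was above background in 1 of 4 libraries, KO 73 and WT 78, and the Y-linked marker in the other 3. KO 73 and WT 78 were therefore also the Xist libraries of their groups. What goes with their marker levels and what goes with Xist cannot be told apart in them. Medians given below without KO 73 alone still include WT 78.

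Arntl, at chromosome 7, 113207465 to 113314122 (GRCm38), comes first because its alleles are the floxed ones. KO libraries 60, 62, 73 and 132 held 401, 428, 645 and 628 raw counts, and WT libraries 56, 57, 64 and 78 held 360, 239, 242 and 374. Scaled, the levels were 9.25, 9.78, 11.7 and 12.9 CPM in KO and 7.29, 6.72, 5.21 and 8.46 CPM in WT, always in that order of mice here and below. Every library labelled KO was above every library labelled WT, but the difference did not pass (log2 fold change 0.66 ± 0.19, adjusted p = 0.473). The count adds all exons of the gene, and the labels do not name the floxed exons, so the count is no measure of the deletion. Its higher level in KO therefore does not check the labels in either direction. The deletion was not checked, so KO and WT below mean the libraries labelled KO and WT. Aldh1l1 itself, whose promoter drives the Cre, overlapped between the groups at 186, 303, 77.03 and 164 CPM in KO and 220.4, 213, 179 and 239.5 CPM in WT.

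Which genes differed between captured astrocytes of the 2 labels was tested with edgeR across 18527 genes. Of these, 43 passed an adjusted p of 0.05, which is 0.232% of the genes tested. KO was higher for 27 (0.146%) and lower for 16 (0.0864%). All 43 had groups that did not overlap, beside 1.89% of all tested genes with every KO library above every WT library and 2.16% with every KO library below. Such separation largely follows from passing the test and is no further support for a call. Changes of at least 2-fold made up 39 of the 43, all 16 lower genes among them. Over all genes the median log2 fold change was 0.004 and the median absolute change 0.174. Of the 43, 19 belonged to a gene list described below and 24 to none.

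**Figure D1:**
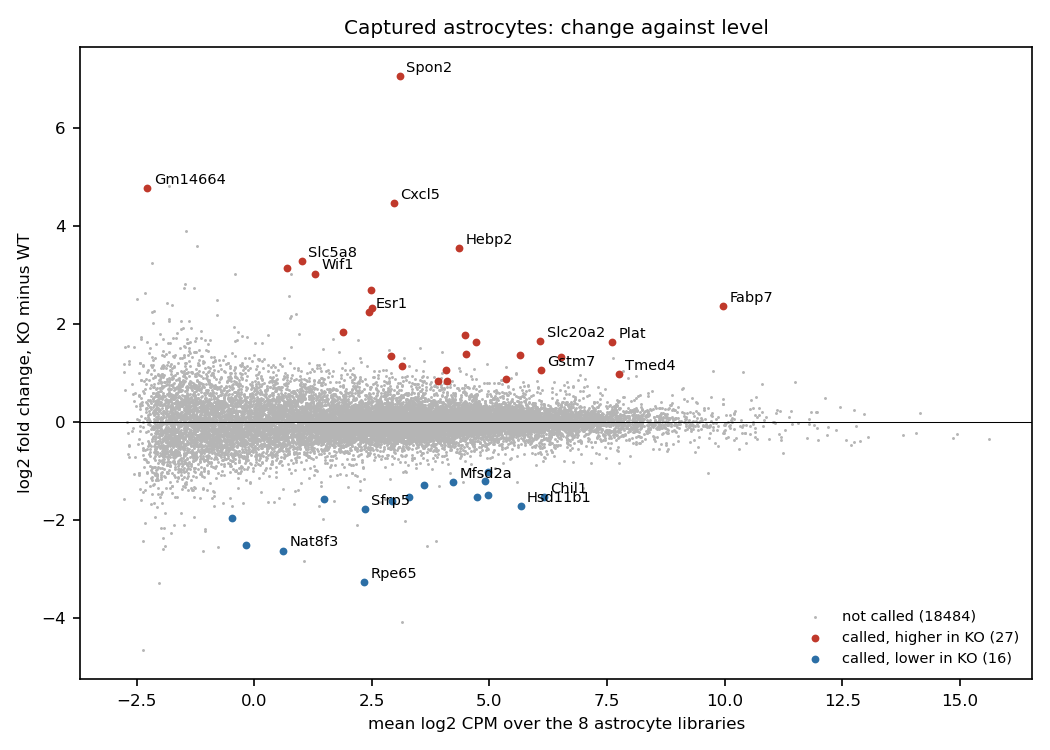
Each point is 1 of 18527 genes, with the mean log2 CPM over the 8 astrocyte libraries on the horizontal axis and the log2 fold change, KO minus WT, on the vertical axis. Red points are the 27 called higher genes and blue points the 16 called lower genes, spread from low levels (Gm14664, Nat8f3) to high ones (Fabp7, Tmed4).

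The calls were uneven in how far they rested on single libraries. In 8 refits that each left out 1 library, 11 genes passed every time: Cxcl5, Hebp2, Oas2, Spon2, Slc20a2, Gstm7, Chil1, Esr1, Rpe65, Arhgef3 and Egfl6. A further 6 passed in 4 to 7 refits, 16 in 1 to 3 and 10 in none, and each such gene is marked where it is described. Without KO 73 there were 37 called genes, 29 of them among the 43, and without KO 73 and WT 78 together there were 36, again with 29 shared. DESeq2 called all 43 among its 160.

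Other alternatives also ended calls. With all 12 libraries in the fit 9 were lost (adjusted p from 0.0522 to 0.131): Egfl6, Fabp7, Gm14664, Dpy19l3, Gm14569, Lrtm2, Prss50, Myorg and Them4. Egfl6 was thus the 1 gene of the 11 above that did not pass in every alternative run. With limma-voom 14 were lost (0.0503 to 0.0855): Krt28, Wif1, Sfrp5, Nat8, Cdkn1a, Dpy19l3, Gm14569, Npl, Prss50, Steap3, Myorg, D630003M21Rik, Them4 and D16Ertd472e. With library size alone as the scaling 16 were lost (0.0669 to 0.188): St3gal4, Mfsd2a, Mmp14, Sfrp5, Dera, Gm14664, Nat8, Tmed4, Gm14569, Npl, Plat, Prss50, Steap3, Myorg, D630003M21Rik and D16Ertd472e. Without KO 73 and WT 78 together 14 were lost (0.0537 to 0.112): Fam122b, Mmp14, Dera, Gm14664, Nat8, Tmed4, Gm14569, Npl, Plat, Prss50, Steap3, Myorg, D630003M21Rik and D16Ertd472e. A term for the Xist libraries ended the calls of the same 14 genes and of Sfrp5, Cdkn1a, Dpy19l3, Lrtm2 and Them4, 19 in all (0.0521 to 0.0981). Without a filter on low counts Dera, Npl and Prss50 were lost (0.0536 to 0.0805).

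Secreted signals and matrix proteins gave 10 of the 43 called genes, 7 higher and 3 lower in KO (the roles were assigned after the values were seen). Spon2, a secreted matrix protein, went from a trace to a well measured level, with 119, 130.3, 75.4 and 119 CPM in KO and 1.09, 0.309, 0.258 and 1.58 CPM in WT (log2 fold change 7.07 ± 0.55, adjusted p = 0.00103). Cxcl5, a chemokine that draws neutrophils, stood at 37.7, 33.9, 35.1 and 40.7 CPM in KO and 1.4, 1.29, 2.04 and 1.9 CPM in WT (4.47 ± 0.19, adjusted p = 1.4e-05). Its 4 KO values lay within a narrow band, far above the highest WT value. Egfl6, a secreted matrix-binding protein with EGF repeats, was at 56.8, 42.5, 31.9 and 35.4 CPM in KO and 13.6, 12.5, 10.5 and 12.1 CPM in WT (1.77 ± 0.19, adjusted p = 0.00744). All 3 passed in every refit that left out 1 library, and Egfl6 missed with all 12 libraries in the fit.

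A pair of secreted WNT inhibitors moved in opposite directions. Wif1, which binds WNT ligands, rose to 6.85, 6.03, 3.69 and 12.97 CPM in KO from 1.36, 0.674, 0.732 and 0.814 CPM in WT (log2 fold change 3.04 ± 0.42, adjusted p = 0.0255). KO 132 was the highest library for Wif1 by a wide margin, but the other 3 KO libraries were also above all of WT. Sfrp5, a decoy for WNT ligands, fell to 1.98, 2.56, 3.2 and 3.5 CPM in KO from 12.3, 9.27, 10.6 and 6.44 CPM in WT (-1.78 ± 0.26, adjusted p = 0.0362). Left-out libraries mattered to both. Wif1 kept its call with KO 73 or WT 56 left out and missed in the other refits (adjusted p up to 0.122). Sfrp5 kept its call with WT 78 left out and missed in the other refits (adjusted p up to 0.132). Sema5b, a membrane-bound semaphorin that guides axons, rose to 8.58, 6.62, 5.35 and 7.48 CPM from 1.82, 1.63, 1.87 and 2.44 CPM (1.85 ± 0.22, adjusted p = 0.0122). It missed without KO 132, WT 56, WT 57 or WT 64 (adjusted p up to 0.0665).

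Both proteases that act at the cell surface and rose are well expressed in these cells. Plat, the tissue plasminogen activator, was at 284, 371, 395 and 371 CPM in KO and 145, 77.5, 158 and 78.2 CPM in WT (log2 fold change 1.63 ± 0.26, adjusted p = 0.0476). The WT values fell into a higher pair, WT 56 and WT 64, and a lower pair, WT 57 and WT 78. Mmp14, a membrane-anchored metalloproteinase that cuts collagen and activates other metalloproteinases, was at 28.3, 19.5, 22.2 and 27.9 CPM in KO and 12.7, 11.5, 11.4 and 10.8 CPM in WT (1.07 ± 0.15, adjusted p = 0.0314). Plat missed in each of the 8 refits (adjusted p up to 0.188). Mmp14 kept its call with KO 62 or KO 73 left out and missed in the other refits (adjusted p up to 0.155). Beside Sfrp5, the lower genes of this group were Chil1 and Prss50. Chil1, the mouse counterpart of the glial glycoprotein CHI3L1, fell to 33.5, 50.4, 42.4 and 44.5 CPM from 140.4, 116, 109 and 124 CPM (-1.52 ± 0.15, adjusted p = 0.00419) and passed in all refits. Prss50, a serine protease known mainly from testis, was scarce in both groups, with 0.254, 0.411, 0.345 and 0.348 CPM in KO and 1.58, 1.18, 1.27 and 1.24 CPM in WT (-1.95 ± 0.31, adjusted p = 0.0476), and it missed in each of the 8 refits (adjusted p up to 0.216).

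Enzymes, receptors and carriers of retinoids, steroids and lipids gave 8 called genes, 4 higher and 4 lower. Esr1, the estrogen receptor alpha, rose to 12.4, 15.1, 8.77 and 11.6 CPM in KO from 3.2, 2.67, 2.24 and 1.99 CPM in WT (log2 fold change 2.24 ± 0.23, adjusted p = 0.00598). The lowest KO library exceeded the highest WT library, and the call held in all refits. Pla2g3, a secreted phospholipase A2, rose to 10.6, 17.6, 10.3 and 13.8 CPM from 3.28, 3.17, 1.57 and 2.31 CPM (2.34 ± 0.28, adjusted p = 0.0122), and it missed without KO 132 or WT 78 (adjusted p up to 0.0665). Them4, an acyl-CoA thioesterase, stood at 196, 135, 98.2 and 169.9 CPM in KO and 63.2, 54.2, 49.05 and 70.3 CPM in WT (1.34 ± 0.21, adjusted p = 0.0477), with KO 73 the lowest of the KO libraries. It kept its call with KO 73 left out and missed in the other refits (adjusted p up to 0.22). Fabp7, the brain fatty acid binding protein, was at 2899, 2162, 1621 and 2726 CPM in KO and 634, 299.8, 334 and 558 CPM in WT (2.37 ± 0.30, adjusted p = 0.015). The Fabp7 call was lost when KO 60, KO 62, KO 132, WT 57 or WT 64 was left out (adjusted p up to 0.0665).

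The lower genes of this group were 3 enzymes of retinoid, steroid and fatty acid turnover and 1 lipid transporter. Rpe65, the isomerase of the visual cycle, fell to 0.807, 2.1, 1.82 and 2.05 CPM from 16.5, 12.98, 12.2 and 23.1 CPM (log2 fold change -3.25 ± 0.34, adjusted p = 0.00598) and passed in every refit. Hsd11b1, which regenerates active glucocorticoid, fell to 27.9, 33.4, 17.4 and 35.4 CPM from 96.5, 92.3, 90.9 and 92.5 CPM (-1.71 ± 0.20, adjusted p = 0.0122). Its WT values were close to each other while KO 73 was the lowest library. Cyp4f15, a cytochrome P450 that oxidises fatty acids, fell to 19.1, 22.8, 15.6 and 18.2 CPM from 66.7, 41.3, 47.5 and 57.6 CPM (-1.49 ± 0.18, adjusted p = 0.0122). Hsd11b1 missed without KO 60 or WT 57 (adjusted p up to 0.0561). Cyp4f15 missed without KO 60 or KO 132 (adjusted p up to 0.0764). Mfsd2a, which carries lysophospholipids with docosahexaenoic acid into the brain and is best known from endothelium, fell to 10.5, 15.1, 10.97 and 12.9 CPM from 32.1, 25.6, 33.1 and 23.9 CPM (-1.21 ± 0.17, adjusted p = 0.0277). It kept its call with KO 62 or WT 78 left out and missed in the other refits (adjusted p up to 0.133). Endothelial markers, by contrast, summed to overlapping ranges, 1080 to 2120 CPM in KO and 882 to 2060 CPM in WT, with 14 of 18 members above WT. Their part in the Mfsd2a result was not tested.

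Sugar and glycan enzymes supplied 6 called genes, 3 higher and 3 lower, and none of them passed in all refits. A pair of them act on sialic acid, the sugar that caps many surface glycans. St3gal4, a sialyltransferase that adds it, fell to 18.01, 22.5, 22.3 and 16.9 CPM in KO from 47.9, 36.1, 48.2 and 50.2 CPM in WT (log2 fold change -1.19 ± 0.15, adjusted p = 0.0164). Npl, the lyase that breaks down free sialic acid, rose to 19.6, 25.2, 25.2 and 21.96 CPM from 13.4, 12.7, 13.2 and 11.9 CPM (0.85 ± 0.13, adjusted p = 0.0431). For St3gal4 the highest KO library was well below the lowest WT library, and for Npl the reverse held. Myorg (listed as AI464131), a glycosidase whose loss in people causes brain calcification, fell to 25.6, 23.4, 19.3 and 20.2 CPM from 56.4, 38.7, 38.8 and 44.7 CPM (-1.01 ± 0.16, adjusted p = 0.0476). Dera, the aldolase that splits deoxyribose phosphate, rose to 20.1, 21.7, 19.9 and 17.8 CPM from 11.6, 10.1, 11.5 and 11.3 CPM (0.84 ± 0.12, adjusted p = 0.038). Dpy19l3, which attaches mannose to tryptophan of secreted proteins, rose to 62.6, 62.4, 44.5 and 55.2 CPM from 32.2, 31.1, 27.4 and 30.5 CPM (0.89 ± 0.14, adjusted p = 0.0421). These 2 changes were among the 4 called ones smaller than 2-fold, with those of Npl and Tmed4. Ppp1r3g, which targets a phosphatase to glycogen, fell to 5.83, 4.43, 3.56 and 3.65 CPM from 11.5, 12.98, 12.8 and 16.1 CPM (-1.61 ± 0.21, adjusted p = 0.0153). In the refits, St3gal4 kept its call with KO 73 or WT 57 left out and missed in the other refits (adjusted p up to 0.0934). Ppp1r3g lost its call when KO 62, KO 132, WT 57, WT 64 or WT 78 was left out (adjusted p up to 0.0934). Dpy19l3 kept its call with KO 73 left out and missed in the other refits (adjusted p up to 0.188). Npl missed in each of the 8 refits (adjusted p up to 0.191), as did Myorg (up to 0.235) and Dera (up to 0.172).

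Transporters and metal-handling proteins gave 4 called genes. Slc20a2, a sodium-coupled phosphate importer whose loss in people also causes brain calcification, rose to 128, 132, 95.8 and 129 CPM from 45.8, 35.9, 33.6 and 38.03 CPM (log2 fold change 1.66 ± 0.15, adjusted p = 0.00271). KO 73 was the lowest KO library for it and was still above all WT libraries. Hebp2, a heme-binding protein, stood at 103, 72.9, 44.7 and 65.5 CPM in KO and 6.4, 5.54, 5.51 and 6.81 CPM in WT (3.56 ± 0.25, adjusted p = 0.000708). Slc5a8, a sodium-coupled importer of lactate and other monocarboxylates, was at 6.04, 7.2, 6.26 and 6.43 CPM in KO and 1.11, 0.506, 0.732 and 0.271 CPM in WT (3.29 ± 0.38, adjusted p = 0.0112). Its KO values hardly varied, whereas WT values ranged over several-fold at a low level. Steap3, which reduces iron in endosomes, fell to 5.17, 7.47, 5.82 and 5.16 CPM from 24.5, 13.97, 12.1 and 17.1 CPM (-1.52 ± 0.24, adjusted p = 0.0476). Slc20a2 and Hebp2 passed in every refit. Slc5a8 missed without KO 132 or WT 57 (adjusted p up to 0.0549), and Steap3 missed in each of the 8 refits (adjusted p up to 0.231).

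Conjugating enzymes gave 3 called genes. Glutathione transferases start the route by which reactive compounds leave cells as mercapturic acids, and NAT8 completes it by acetylating the cysteine conjugate. Gstm7, a mu-class glutathione transferase, rose to 97.05, 97.5, 98.8 and 102 CPM in KO from 50.7, 44.6, 44.5 and 48.4 CPM in WT (log2 fold change 1.07 ± 0.10, adjusted p = 0.00273). The spread within each group was small, and Gstm7 passed in all refits. Its neighbour and near paralog Gstm6 was at 37.4, 43.9, 33.9 and 44.5 CPM in KO and 31.6, 23.3, 26.7 and 32.9 CPM in WT (0.48 ± 0.15, adjusted p = 0.556), and how reads shared between the 2 genes were counted is not given, so the split between them is uncertain. Nat8 fell to 8.28, 7.13, 8.38 and 7.68 CPM from 23.1, 17, 13.5 and 22.7 CPM (-1.28 ± 0.19, adjusted p = 0.038). Nat8f3, a family member, fell to 0.415, 0.708, 0.746 and 0.574 CPM from 5.41, 2.92, 3.17 and 3.55 CPM (-2.62 ± 0.31, adjusted p = 0.0121). Nat8 kept its call with WT 64 left out and missed in the other refits (adjusted p up to 0.188). Nat8f3 missed without KO 132 (adjusted p up to 0.0665). Acy3, an aminoacylase that removes the acetyl group from mercapturic acids, lay just outside the threshold at 13.7, 13.04, 10.02 and 9.83 CPM in KO and 4.42, 4.55, 6.01 and 3.26 CPM in WT (1.35 ± 0.22, adjusted p = 0.0525).

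The Nat8 family on chromosome 6 lay below WT as a block, with larger differences toward lower coordinates (a pattern singled out after the values were seen). All 9 tested members there lay below WT, 8 of them at an unadjusted p under 0.05, and for 6 the groups did not overlap. Counted by lowest coordinate, from Nat8f7, 124 kb before Nat8, to Nat8f1, 79.8 kb after it, the log2 fold changes were -2.37 for Nat8f7, -2.62 for Nat8f3, -1.71 for Nat8f6, -1.63 for Nat8f5, -1.28 for Nat8, -0.88 for Nat8f2, -0.75 for Nat8f4 and -0.46 for Nat8f1. The order was not strict, since Nat8f3 exceeded Nat8f7 in size and the pseudogene Nat8b-ps, past Nat8f1, had -0.67 ± 0.47. The pseudogene Alms1-ps2, which starts 56.0 kb before Nat8, shared the pattern at 0.3, 0.343, 0.109 and 0.164 CPM in KO and 1.72, 1.46, 0.947 and 1.24 CPM in WT (-2.55 ± 0.43, adjusted p = 0.0588). Nat8f5 was at 3.18, 4.18, 4.4 and 3.24 CPM in KO and 15.6, 7.05, 9.82 and 14.1 CPM in WT (-1.63 ± 0.27, adjusted p = 0.0525). The most abundant member, Nat8f1, overlapped between the groups, with 80.3, 74.1, 55.2 and 75.2 CPM in KO and 104, 90.4, 78.5 and 118 CPM in WT. No other tested gene within 500 kb on either side reached an unadjusted p of 0.05. The members are near-identical paralogs, Nat8f5 overlaps Nat8f6 on the same strand, and how reads matching several of them were counted is not given, so the split between members is uncertain.

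**Figure D2:**
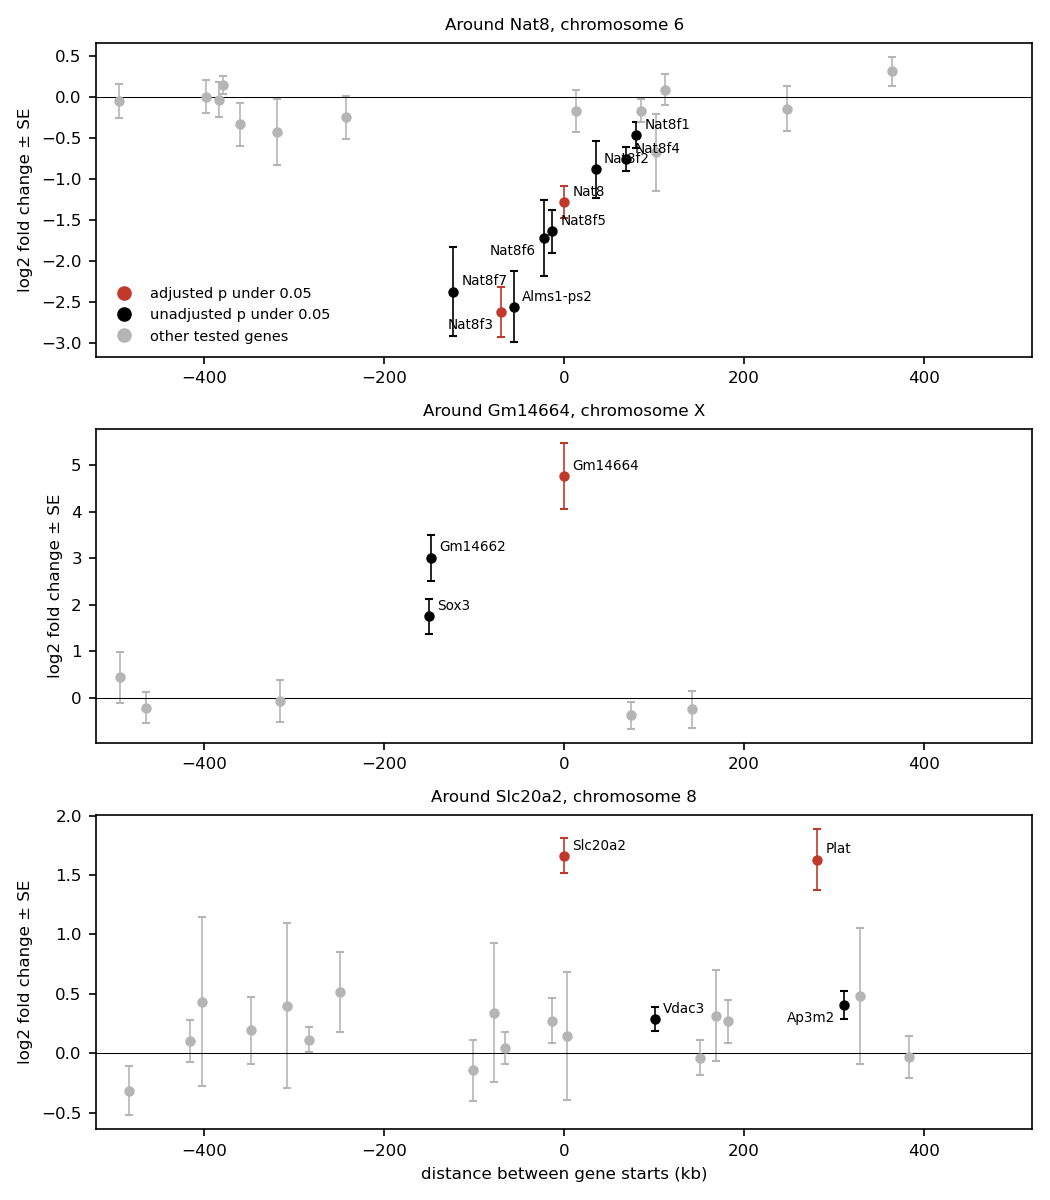
Log2 fold changes (KO minus WT, with standard errors, n = 4 libraries each) of tested genes are plotted against the distance in kb between gene starts around Nat8, Gm14664 and Slc20a2. Red points are called genes, black points have an unadjusted p under 0.05 and grey points are the other tested genes; the Nat8 family lies below 0 as a block, while Gm14664, Gm14662 and Sox3 stand above 0. The height of Gm14664 is a fitted value that depends on the prior count, since its WT libraries hold next to no counts.

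Other called genes also had neighbours that differed in the same direction. Of the 43 called genes, 17 (39.5%) had a tested gene within 250 kb (gene edge to gene edge) that differed in the same direction at an unadjusted p under 0.05, beside 4008 of all 18527 tested genes (21.6%). Nat8 and Nat8f3, like Slc20a2 and Plat, count for each other among the 17. On chromosome 8, Slc20a2 and Plat lie 188 kb apart. Between them Vdac3, a mitochondrial outer membrane channel, was at 243, 235, 256 and 239 CPM in KO and 204, 187, 189.7 and 215 CPM in WT (0.29 ± 0.10, adjusted p = 0.695), with the groups apart. Just beyond Plat, Ap3m2, an adaptor subunit of vesicle traffic, was at 107, 137, 105 and 106 CPM in KO and 81.2, 91.8, 85.3 and 84.8 CPM in WT (0.41 ± 0.12, adjusted p = 0.473). On the X chromosome the predicted gene Gm14664 had 20, 42, 37 and 31 raw counts in the KO libraries against 2, 0, 2 and 0 in the WT libraries, all of the latter below the floor of 3 counts, so no fold is given (adjusted p = 0.038). Gm14664 missed in each of the 8 refits (adjusted p up to 0.155). Gm14662, a predicted gene beside the transcription factor gene Sox3, was just outside the threshold at 3.48, 1.78, 1.35 and 1.93 CPM in KO and 0.263, 0.197, 0.108 and 0.475 CPM in WT (3.02 ± 0.50, adjusted p = 0.0536). Sox3, which keeps neural progenitors undifferentiated, was at 1.82, 1.03, 1.46 and 1.74 CPM in KO and 0.243, 0.45, 0.689 and 0.407 CPM in WT (1.75 ± 0.38, adjusted p = 0.186). On chromosome 6, Slc41a3, whose start lies 118 kb from that of Aldh1l1, was at 12.4, 21.3, 8.11 and 17.4 CPM in KO and 8.19, 5.59, 6.01 and 4.18 CPM in WT (1.30 ± 0.31, adjusted p = 0.272). Klf15, a glucocorticoid-induced transcription factor on the other side of Aldh1l1, differed in the other direction (-0.77 ± 0.18, adjusted p = 0.232).

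Cdkn1a, Arhgef3 and Tmed4 were the called genes of cell cycle, signalling and traffic, all higher. Cdkn1a, the cyclin-dependent kinase inhibitor p21, rose to 99.5, 97.8, 58.4 and 73.02 CPM in KO from 23.3, 35.3, 31.6 and 37.2 CPM in WT (log2 fold change 1.37 ± 0.21, adjusted p = 0.0421). Arhgef3, an exchange factor for small GTPases, rose to 41.7, 41.1, 30.6 and 34.5 CPM from 11.6, 14.8, 14.7 and 15.1 CPM (1.4 ± 0.15, adjusted p = 0.00741). Tmed4, a cargo receptor between endoplasmic reticulum and Golgi, rose to 299, 318, 288 and 314 CPM from 194, 133, 165 and 126 CPM (0.98 ± 0.15, adjusted p = 0.0421). Arhgef3 passed in every refit. Cdkn1a kept its call with KO 73 left out and missed in the other refits (adjusted p up to 0.154). Tmed4 kept its call with WT 56 left out and missed in the other refits (adjusted p up to 0.188). Among 21 tested cell cycle and senescence genes, Cdkn1a was the 1 called member, and the median log2 fold change was 0.08, or -0.12 without KO 73.

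The interferon-induced genes Oas2, a sensor of double-stranded RNA, and Cmpk2, a mitochondrial nucleotide kinase, were both called higher. Oas2 stood at 15.5, 14.03, 13.04 and 14.1 CPM in KO and 2.07, 1.71, 2.95 and 1.97 CPM in WT (log2 fold change 2.70 ± 0.20, adjusted p = 0.000937). Cmpk2 was at 64.4, 47.2, 32.4 and 42.97 CPM in KO and 15.7, 15.6, 12.3 and 16.7 CPM in WT (1.63 ± 0.21, adjusted p = 0.0153), and it kept its call with KO 60 or KO 73 left out and missed in the other refits (adjusted p up to 0.0834). The interferon response list had 28 tested members and a median of 0.06, and no other member passed; 3 reached an unadjusted p under 0.05, these 2 and Ifit3b. Ifit3b, an interferon-induced gene with near-identical paralogs, ran the opposite way at 25.2, 46.4, 71.1 and 52.2 CPM in KO and 89.4, 83.9, 103 and 81.5 CPM in WT (-0.88 ± 0.26, adjusted p = 0.5). Without KO 73 the list's median was -0.30.

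The last 6 called genes have less familiar roles in astrocytes. Krt28, a keratin of the hair follicle, rose to 5.56, 6.58, 2.24 and 5.3 CPM from 0.466, 0.787, 0.344 and 0.633 CPM (log2 fold change 3.14 ± 0.40, adjusted p = 0.0153). Fam122b rose to 15.1, 12.2, 10.8 and 9.79 CPM from 4.62, 5.28, 3.96 and 4.97 CPM (1.34 ± 0.19, adjusted p = 0.0267). D16Ertd472e rose to 13.1, 11.5, 16.5 and 11.7 CPM from 7.25, 6.07, 5.04 and 5.58 CPM (1.14 ± 0.18, adjusted p = 0.0486). KO libraries of these 3 were all above WT, with KO 73 lowest for Krt28. Lrtm2, a leucine-rich repeat membrane protein, fell to 18.6, 21.3, 9.26 and 15.4 CPM from 47.3, 46.7, 39.4 and 51.3 CPM (-1.52 ± 0.23, adjusted p = 0.0431). D630003M21Rik fell to 1.22, 1.76, 1.51 and 2.05 CPM from 5.04, 3.77, 4.33 and 6.2 CPM (-1.56 ± 0.25, adjusted p = 0.0477). The X-linked Gm14569 fell to 0.438, 0.206, 0.473 and 0.328 CPM from 2.07, 2.02, 1.23 and 2.92 CPM (-2.50 ± 0.39, adjusted p = 0.0431). None of the 6 held throughout. Krt28 kept its call with KO 73 left out and missed in the other refits (adjusted p up to 0.0932). Fam122b kept its call with KO 73 left out and missed in the other refits (adjusted p up to 0.109). Lrtm2 kept its call with KO 73 left out and missed in the other refits (adjusted p up to 0.216). D16Ertd472e missed in each of the 8 refits (adjusted p up to 0.199), as did D630003M21Rik (up to 0.154) and Gm14569 (up to 0.216).

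**Figure D3:**
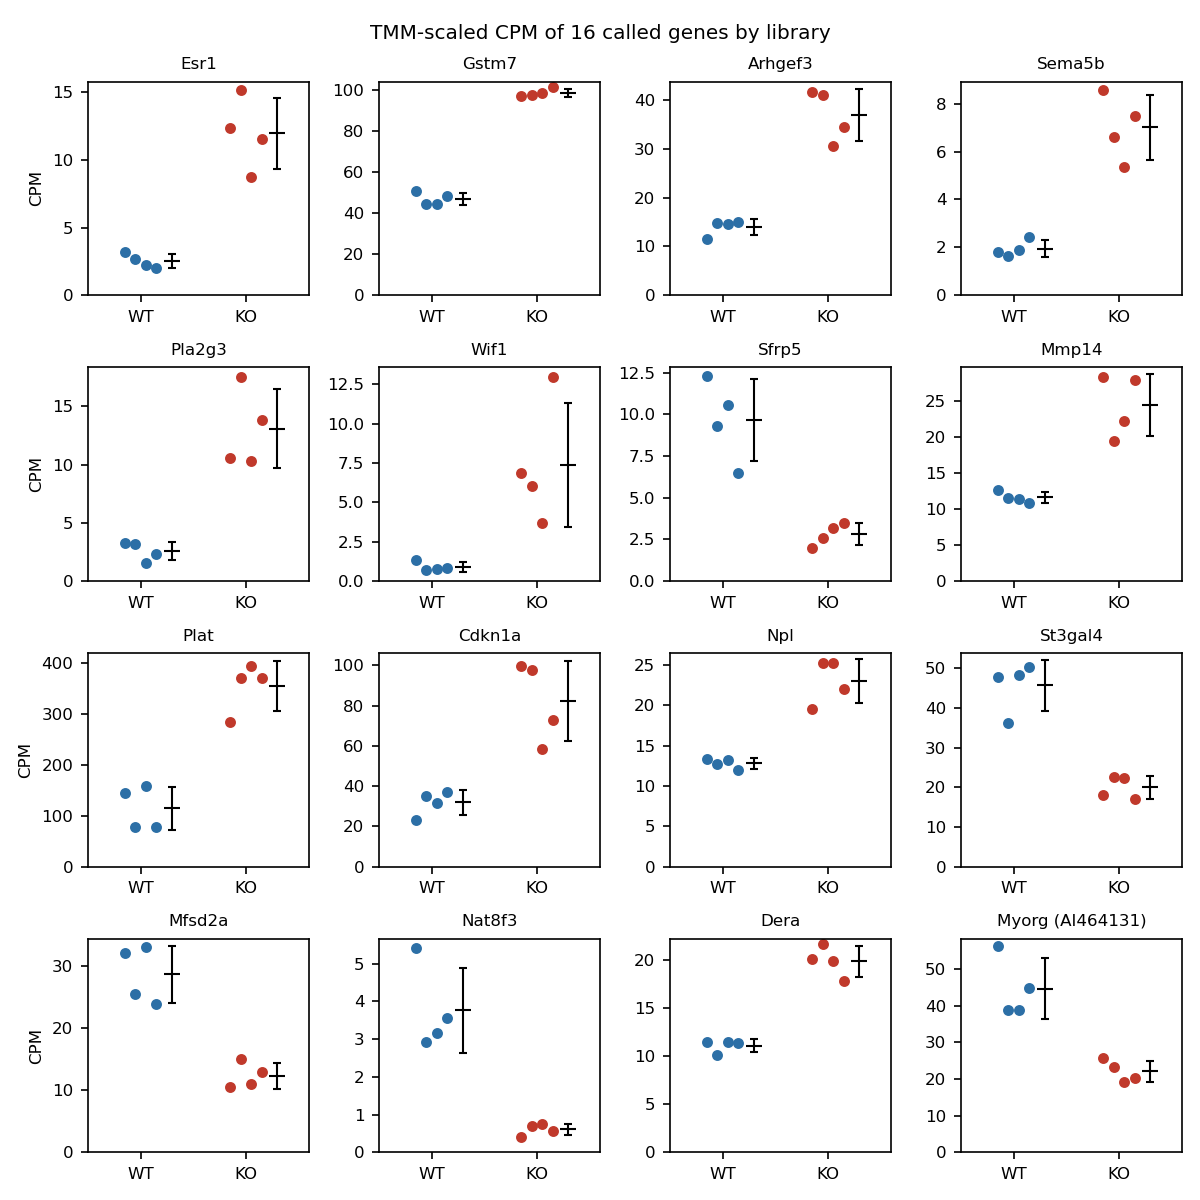
TMM-scaled CPM of 16 called genes is plotted for each of the 4 WT (blue) and 4 KO (red) libraries, each panel from 0, with the mean and SD in black. In every panel the 2 groups stay apart; Gstm7 and Dera show little spread, and Wif1 shows 1 high KO library (KO 132).

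Besides Acy3, Nat8f5 and Gm14662, genes just outside the threshold were Lfng and Rhbdl2. Rhbdl2, a rhomboid protease of the cell surface, was at 4.27, 5.92, 7.13 and 5.92 CPM in KO and 2.67, 1.35, 1.36 and 1.79 CPM in WT (log2 fold change 1.69 ± 0.28, adjusted p = 0.0566). Lfng, the fringe enzyme that adds sugar to Notch receptors, was at 4.08, 4.71, 5.53 and 5.65 CPM in KO and 14.2, 10.1, 9.75 and 10.3 CPM in WT (-1.15 ± 0.19, adjusted p = 0.0544). In these 5 the groups did not overlap. The last called gene was D16Ertd472e (adjusted p = 0.0486).

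Compared per kilobase of exon, levels of the called genes in KO were led by Fabp7 at 1882 CPM per kilobase, against 365 in WT. Plat came next at 140.3 and 45.3, and Tmed4 was level with it in KO at 140.1 against 70.9 in WT. Among the lower genes Chil1 was the most abundant in WT, with 43.6 CPM per kilobase against 15.2 in KO. The scarcest was Gm14569 at 0.0631 in KO and 0.36 in WT, and Esr1, at 0.876 and 0.185, was also near the low end.

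The clock lists leaned in opposite directions. In the list of genes activated through E-boxes, 14 of 15 lay below WT and 1 above. In the list of genes repressed by REV-ERB, 6 of 7 lay above WT and 1 below. The lists were chosen with earlier results of these data known, so the split is a description only. Cry1, which like Cry2 is also activated through E-boxes, was counted in the REV-ERB list alone. No member of either clock list was called in the edgeR test. At an unadjusted p under 0.05, 6 of 15 genes activated through E-boxes were lower and 0 were higher, where 2.86% of all tested genes were lower at that threshold and 2.52% higher. Among the genes repressed by REV-ERB, 4 of 7 were higher (Npas2, Arntl, Cry1 and Clock) and 0 lower. Arntl, the floxed gene itself, is included in every count and median of the REV-ERB list. The median log2 fold change was -0.40 over the E-box list and 0.47 over the REV-ERB list. DESeq2, with more calls in all, called Nr1d2, Nr1d1, Per2, Per3 and Npas2 (adjusted p = 0.00121, 0.00521, 0.00233, 0.0295 and 0.0195). Over all alternatives run, the adjusted p of these 5 reached 0.371, 0.404, 0.317, 0.842 and 0.719. Medians changed little without KO 73, to -0.45 and 0.44. The labels do not give the time of day of collection, and its part in these values was not tested.

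Among the E-box genes, the REV-ERB receptors had the smallest p. Nr1d1, REV-ERB alpha, was at 61.95, 93.1, 63.3 and 74.3 CPM in KO and 146, 127, 118 and 114 CPM in WT (log2 fold change -0.79 ± 0.15, adjusted p = 0.11). Nr1d2, REV-ERB beta, was at 12.2, 11.4, 13.9 and 10.6 CPM in KO and 18.5, 23.4, 23.9 and 18.8 CPM in WT (-0.81 ± 0.15, adjusted p = 0.0868). All 4 KO libraries were below all 4 WT libraries for both. The PER repressors came next. Per2 was at 6.25, 7.01, 5.46 and 7.89 CPM in KO and 12.4, 12.1, 18.2 and 10.9 CPM in WT (-1.01 ± 0.20, adjusted p = 0.123). Per3 was at 20.1, 37.5, 42.1 and 31.99 CPM in KO and 99.3, 56.3, 106 and 43.7 CPM in WT (-1.21 ± 0.32, adjusted p = 0.354), with a wide spread in WT. Per1 overlapped between the groups at 10.1, 12.8, 10.1 and 8.05 CPM in KO and 12.3, 13.9, 15.9 and 9.95 CPM in WT (-0.34 ± 0.19). The output regulator Dbp was lower in every KO library, at 6.3, 5.73, 7.66 and 9.05 CPM against 11.1, 9.92, 11.6 and 10.8 CPM in WT (-0.59 ± 0.18, adjusted p = 0.498), while its relatives Tef (-0.33 ± 0.16) and Hlf (-0.30 ± 0.20) overlapped. The repressors Bhlhe40 (-0.40 ± 0.14), Bhlhe41 (-0.33 ± 0.19), Ciart (-0.45 ± 0.36) and Cry2 (-0.13 ± 0.17) overlapped too, as did Tsc22d3 (-0.51 ± 0.27) and Usp2 (-0.30 ± 0.20).

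Of the REV-ERB-repressed genes, Npas2, the partner of BMAL1 that can stand in for CLOCK, had the largest change, at 19.9, 18.02, 10.9 and 15.1 CPM in KO and 5.27, 8.21, 6.35 and 10.8 CPM in WT (log2 fold change 1.06 ± 0.26, adjusted p = 0.302). Its lowest KO library, KO 73, was just above its highest WT library, WT 78. Cry1, a repressor, was at 8.003, 6.85, 7.53 and 8.87 CPM in KO and 4.72, 4.58, 7.21 and 5.02 CPM in WT (0.54 ± 0.20), where WT 64 reached into the KO range. Clock was at 24.7, 16.9, 22.1 and 20.1 CPM in KO and 13.01, 18.1, 12.4 and 17.1 CPM in WT (0.47 ± 0.18). The adjusted p was 0.757 for Cry1 and 0.782 for Clock. Nfil3 (0.35 ± 0.28), E2f8 (0.39 ± 0.62) and Rorb, the 1 member below WT (-0.30 ± 0.20), overlapped between the groups.

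**Figure D4:**
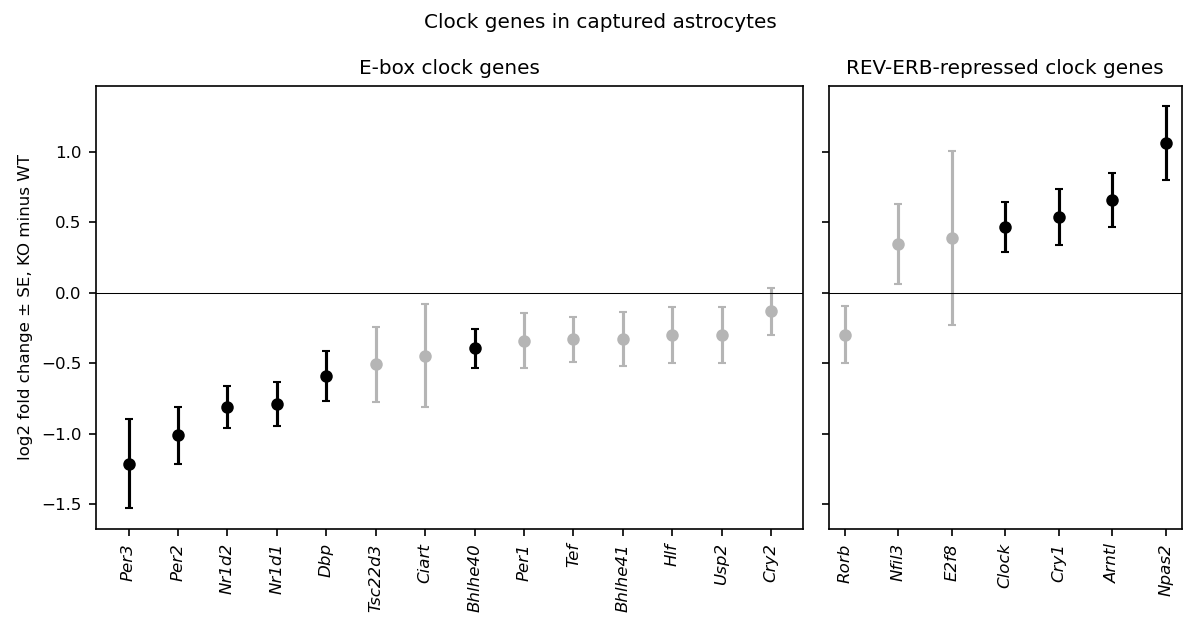
Log2 fold changes (KO minus WT) of 14 of the 15 E-box clock genes and all 7 REV-ERB-repressed clock genes are shown with standard errors (n = 4 libraries each), ordered by value. Black points have an unadjusted p under 0.05 and grey points do not; 1 E-box gene is not shown (14 of the 15 lay below WT and 1 above), the 14 points on the left lie below 0, and 6 of 7 on the right above it.

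Promoter letters were read for these genes from RefSeq (GRCm38.p6), over the 250 bases before each annotated gene start, where 12832 of the 18527 tested genes, 12 of the 15 E-box genes, all 7 REV-ERB-repressed genes and 36 of the 43 called genes had an entry. All entries of a gene were searched, so a gene with several starts had more chances of a match. Of 16323 entries of tested genes, 7688 had the exact opening bases of an annotated transcript after the start. The rest had no exact match, so their windows may be offset. The E-box CACGTG (the same on both strands) was in the window of Bhlhe41, Ciart, Per1 and Tef, 4 of 12 E-box genes (33.3%), beside 9.29% of the tested genes and 3 of 36 called genes (8.33%): Wif1, Npl and D16Ertd472e. Of the REV-ERB-repressed genes it was in that of Cry1 alone. The E-box list was made of genes activated through such sites, so its larger share of CACGTG follows in part from that choice. The variant CACGTT, searched on both strands, was in the window of Cry2, Nr1d1, Cry1, Rorb and the called gene Mfsd2a, beside 5.0% of tested genes. TAGGTCA, the core of the site that REV-ERB receptors bind, on both strands, was in that of Nfil3 and of the called gene Fabp7, beside 1.96% of tested genes. Stretches that overlap no annotated exon (GENCODE) are shown for 5 clock genes and for 2 called genes, Wif1 and Fabp7, to let the letters be read beside the values, 5′ to 3′ on the gene's strand with the motif in capitals (for Nr1d1 and Fabp7 it reads on the opposite strand):
Per1 (chr11:69098756-69098815, + strand): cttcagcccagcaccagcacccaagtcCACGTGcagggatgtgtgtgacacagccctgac
Ciart (chr3:95882312-95882371, - strand): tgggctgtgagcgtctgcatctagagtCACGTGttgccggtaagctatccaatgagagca
Tef (chr15:81811249-81811308, + strand): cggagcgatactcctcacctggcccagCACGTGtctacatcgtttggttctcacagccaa
Cry1 (chr10:85185082-85185141, - strand): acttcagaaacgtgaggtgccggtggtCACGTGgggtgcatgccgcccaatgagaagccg
Nr1d1 (chr11:98775378-98775432, - strand): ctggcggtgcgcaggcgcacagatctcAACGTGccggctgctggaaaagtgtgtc
Wif1 (chr10:121033767-121033826, + strand): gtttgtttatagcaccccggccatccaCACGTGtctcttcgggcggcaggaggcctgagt
Fabp7 (chr10:57784725-57784785, + strand): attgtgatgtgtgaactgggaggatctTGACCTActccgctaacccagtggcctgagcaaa
Genes with a motif were not alike in their change: Wif1 and Fabp7 rose, Nr1d1 was lower in all KO libraries without passing, and Per1, Ciart and Tef overlapped between the groups. A match is a match of letters and no measure of binding.

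Pathways were described with 31 lists beside the 2 clock lists and 16 marker lists. A list's median is set beside the 0.004 of all genes. Its counts are set beside the shares of all tested genes given above: 0.146% called higher and 0.0864% called lower, 2.52% higher and 2.86% lower at an unadjusted p under 0.05, and 1.89% and 2.16% with the groups apart above and below. Of the lists, 12 pathway lists had a called member. The retinoid and steroid list, with the matrix list, had the most calls, 3 of 20, all lower: Rpe65, Hsd11b1 and Cyp4f15. It had 6 members lower at an unadjusted p under 0.05 and 0 higher, 5 of them with no overlap between groups, and a median of -0.34, or -0.13 with a term for the mean of microglia and oligodendrocyte markers in the fit (the marker term). Cyp7b1, which hydroxylates oxysterols and neurosteroids, was at 12.8, 12.8, 13.3 and 14.2 CPM in KO and 26.1, 20.4, 19.9 and 23.1 CPM in WT (log2 fold change -0.75 ± 0.13, adjusted p = 0.0685). Cyp4f14, which starts 219 kb from Cyp4f15 on chromosome 17, was at 11.5, 12.2, 4.93 and 11.6 CPM in KO and 27.6, 21.3, 20.5 and 28.7 CPM in WT (-1.29 ± 0.27, adjusted p = 0.16). As paralogs, the 2 Cyp4f genes may share reads. Cyp4f15, described above as oxidising fatty acids, was counted in this list with Cyp4f14, so the list is broader than its name. The glucocorticoid response list had 1 member called higher (Cdkn1a) and 1 lower (Hsd11b1), and 12 of its 16 members lay below WT (median -0.26). Its other members at an unadjusted p under 0.05 were Sgk1, a kinase (0.94 ± 0.38), and Sult1a1, a sulfotransferase (-0.71 ± 0.21), and neither passed.

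Of the Notch genes, 3 were lower and 1 higher at an unadjusted p under 0.05, the first being the enzyme Lfng given above. Nrarp, a feedback inhibitor induced by Notch, was at 7.98, 5.71, 4.44 and 7.6 CPM in KO and 9.62, 10.7, 9.02 and 10.2 CPM in WT (log2 fold change -0.62 ± 0.21, adjusted p = 0.617). Hes1, a repressor induced by Notch, was at 12.8, 8.82, 14.5 and 13.2 CPM in KO and 24.6, 14.7, 20.2 and 14.7 CPM in WT (-0.59 ± 0.22, adjusted p = 0.771). Dtx4, a ubiquitin ligase of the pathway, ran the other way at 49.4, 43.8, 44.6 and 54.2 CPM in KO and 29.7, 28.8, 20.6 and 30.8 CPM in WT (0.80 ± 0.15, adjusted p = 0.0949). All 4 kept the groups apart, none passed, and the list's median was -0.19 over 18 genes. The WNT and BMP list held both called inhibitors, Wif1 and Sfrp5, and had a median of 0.04, or -0.10 without KO 73. Its members at an unadjusted p under 0.05 were 3 higher and 4 lower of 28. Among them were Sfrp2, another secreted inhibitor, at 0.738, 0.48, 0.382 and 0.41 CPM in KO and 0.101, 0.197, 0.237 and 0.158 CPM in WT (1.52 ± 0.43), and the BMP antagonist Chrdl1 (-0.93 ± 0.26), with adjusted p = 0.456 and 0.41.

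Matrix genes had 3 called members of 24, Spon2, Egfl6 and Mmp14, all higher, with a median of 0.13, or 0.05 without KO 73. Nid2, a basement membrane linker, was higher mainly in KO 73 (3.46, 3.98, 7.4 and 3.69 CPM in KO and 3.48, 1.52, 3.32 and 1.27 CPM in WT) and did not pass (0.95 ± 0.40, adjusted p = 0.882). Of the synapse-shaping genes, 4 were lower and 1 higher at an unadjusted p under 0.05, none called. Bcan, the proteoglycan brevican, was at 102, 76.4, 71.8 and 82.5 CPM in KO and 166, 138, 126 and 156 CPM in WT (-0.82 ± 0.14, adjusted p = 0.0727). The glypicans Gpc5 (-0.58 ± 0.17) and Gpc6 (-0.42 ± 0.15), cell-surface proteoglycans, were on the same side, as was Chrdl1. Ncan, neurocan, was on the other (0.50 ± 0.19). In the synapse-shaping list as a whole 10 members were above and 10 below WT.

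Phosphate transport and brain calcification genes included 2 called members, Slc20a2 higher and Myorg lower. Another gene of the disease, the adhesion molecule Jam2, was at 67.2, 71.4, 74.1 and 70.6 CPM in KO and 91.3, 76.3, 97.4 and 83.96 CPM in WT (log2 fold change -0.30 ± 0.11, adjusted p = 0.744). All KO libraries were below WT for Jam2. The remaining members overlapped, and the list's median was 0.10 over 11 genes, turning to -0.16 without KO 73. Iron and heme genes had Hebp2 called higher and Steap3 lower, with a median of 0.09. Among glycogen and glucose genes Ppp1r3g was called lower, and its family member Ppp1r3d was at 2.61, 2.42, 2.73 and 2.85 CPM in KO and 3.26, 3.57, 3.53 and 4.27 CPM in WT (-0.46 ± 0.19, adjusted p = 0.852). Pfkfb3, which drives glycolysis, was at 44.2, 50.8, 31.6 and 37.5 CPM in KO and 26.1, 23.8, 21.3 and 23.1 CPM in WT (0.80 ± 0.16, adjusted p = 0.123). For both the groups were apart.

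Fatty acid genes at an unadjusted p under 0.05 were all on the lower side. Of 24 tested, 4 were lower and 0 higher at an unadjusted p under 0.05, none called: Cpt1a, which admits fatty acids to mitochondria (-0.51 ± 0.15), the dehydrogenase Acadl (-0.57 ± 0.21), the carboxylase Acacb (-0.52 ± 0.21) and the synthase Fasn (-0.33 ± 0.13). Cpt1a was at 38.1, 47.7, 33.2 and 46.5 CPM in KO and 68.9, 53.95, 54.6 and 57.9 CPM in WT and kept the groups apart. The median of the list was -0.06, and 0.007 without KO 73. In cholesterol synthesis Fdft1 (-0.40 ± 0.15) and Msmo1 (-0.37 ± 0.16) were the members at that threshold, both lower, and the median was -0.09. Lipid transport had Fabp7 called higher. Lrp4, an agrin and lipoprotein receptor, was at 182, 245, 195 and 219 CPM in KO and 159, 152, 160.5 and 159.5 CPM in WT (0.42 ± 0.12, adjusted p = 0.459). Lcat, which esterifies cholesterol on lipoproteins, was at 69.5, 79.4, 44.01 and 70.6 CPM in KO and 129, 92.1, 89.8 and 113 CPM in WT (-0.69 ± 0.20, adjusted p = 0.456).

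Transmitter handling, channel and phagocytosis genes held no called member. In the glutamate and GABA list 14 of 17 members were below WT (median -0.29), and 3 at an unadjusted p under 0.05, all lower. Gabrg1, a GABA-A receptor subunit, was at 56.7, 54.9, 42.1 and 60.9 CPM in KO and 94.7, 80.1, 87.03 and 109 CPM in WT (log2 fold change -0.79 ± 0.15, adjusted p = 0.092) with no overlap. Glul, glutamine synthetase (-0.54 ± 0.18), and Gria2, a glutamate receptor subunit (-0.44 ± 0.15), overlapped. Among ion, water and gap junction genes Kcnk1 (-0.34 ± 0.13) and Mlc1 (-0.38 ± 0.15) were the members at that threshold, with a median of -0.17. Mfge8, a secreted tag for cells to be engulfed, was at 598, 707, 441 and 525 CPM in KO and 1498, 952, 866 and 1348 CPM in WT (-1.04 ± 0.22, adjusted p = 0.16), and its partner receptor Mertk had -0.60 ± 0.16 (adjusted p = 0.392). Beside these values, the astrocyte identity list had 21 of 24 markers below WT and a median of -0.24, with F3 (-0.58 ± 0.18), Slc39a12 (-0.39 ± 0.15) and Fgfr3 (-0.51 ± 0.19) among the lower ones. Without KO 73 that median was -0.13 and the glutamate median -0.13. With the marker term the medians were -0.12 for astrocyte identity, -0.13 for glutamate and GABA and -0.14 for the channel list.

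Reactive astrocyte lists held no called gene, and their medians turned sign without KO 73. Gfap, the filament protein of reactive astrocytes, was at 3242, 2289, 1012 and 1583 CPM in KO and 854, 1147, 632 and 1340 CPM in WT (log2 fold change 1.03 ± 0.36, adjusted p = 0.683). KO 73 lay within the WT range for it. Amigo2, an adhesion molecule of the A1 set, was at 3.71, 2.58, 2.33 and 4.06 CPM in KO and 7.78, 7.19, 8.89 and 5.29 CPM in WT (-1.20 ± 0.25, adjusted p = 0.146), lower in all KO libraries. C4b, a complement component, was at 124, 169.7, 175 and 107 CPM in KO and 105, 75.3, 86.1 and 77.1 CPM in WT (0.74 ± 0.18, adjusted p = 0.31). Medians were 0.09 for the pan-reactive, 0.04 for the A1 and 0.39 for the A2 list, and -0.15, -0.32 and -0.39 without KO 73. The 5 pathway lists with no member at an unadjusted p under 0.05 were lysosome, immediate early, ER stress, mitochondrially encoded and nuclear oxidative phosphorylation genes. All 13 mitochondrially encoded genes were below WT (median -0.33). Their median was -0.24 without KO 73 alone, -0.04 without KO 73 and WT 78 together and -0.0061 with the marker term. Bag3, a co-chaperone of selective autophagy, was at 22.2, 21.5, 25.7 and 23.4 CPM in KO and 16.4, 15.1, 18.6 and 12.8 CPM in WT (0.56 ± 0.14, adjusted p = 0.348). In one-carbon and sulfur amino acid metabolism, Cth, which makes cysteine, had -0.95 ± 0.20 and Shmt1, a serine hydroxymethyltransferase, 0.87 ± 0.28, and neither passed (adjusted p = 0.146 and 0.581).

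Marker lists of other cells mostly had medians above 0, 13 of the 16 marker lists, or 8 without KO 73. All 20 oligodendrocyte markers were above WT, with a median of 0.73, and 0.27 without KO 73. Cnp, a myelin enzyme, was at 1132, 1309, 1561 and 1034 CPM in KO and 811, 505, 499 and 624 CPM in WT (log2 fold change 1.05 ± 0.20, adjusted p = 0.109). All 20 microglia markers were above WT too, with a median of 0.55 that turned to -0.08 without KO 73 and -0.19 without KO 73 and WT 78 together. Ependymal and neutrophil medians, 0.16 and 0.31, turned to -0.63 and -0.60 without KO 73. Medians of the neuron, pericyte and granule neuron lists were -0.09, 0.02 and 0.04, and 0.04, -0.10 and 0.28 without KO 73. Over the pathway lists, 16 of 31 medians changed sign without KO 73: those of the 3 reactive astrocyte lists and of the BAG3, lysosome, interferon, chemokine, complement, fatty acid, lipid transport, phosphate, WNT and BMP, cell cycle, immediate early, ER stress and nuclear oxidative phosphorylation lists. When the mean of microglia and oligodendrocyte markers was added as a term, a choice made after seeing the data, all 43 calls passed and 136 genes did so in all (77 higher, 59 lower).

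**Figure D5:**
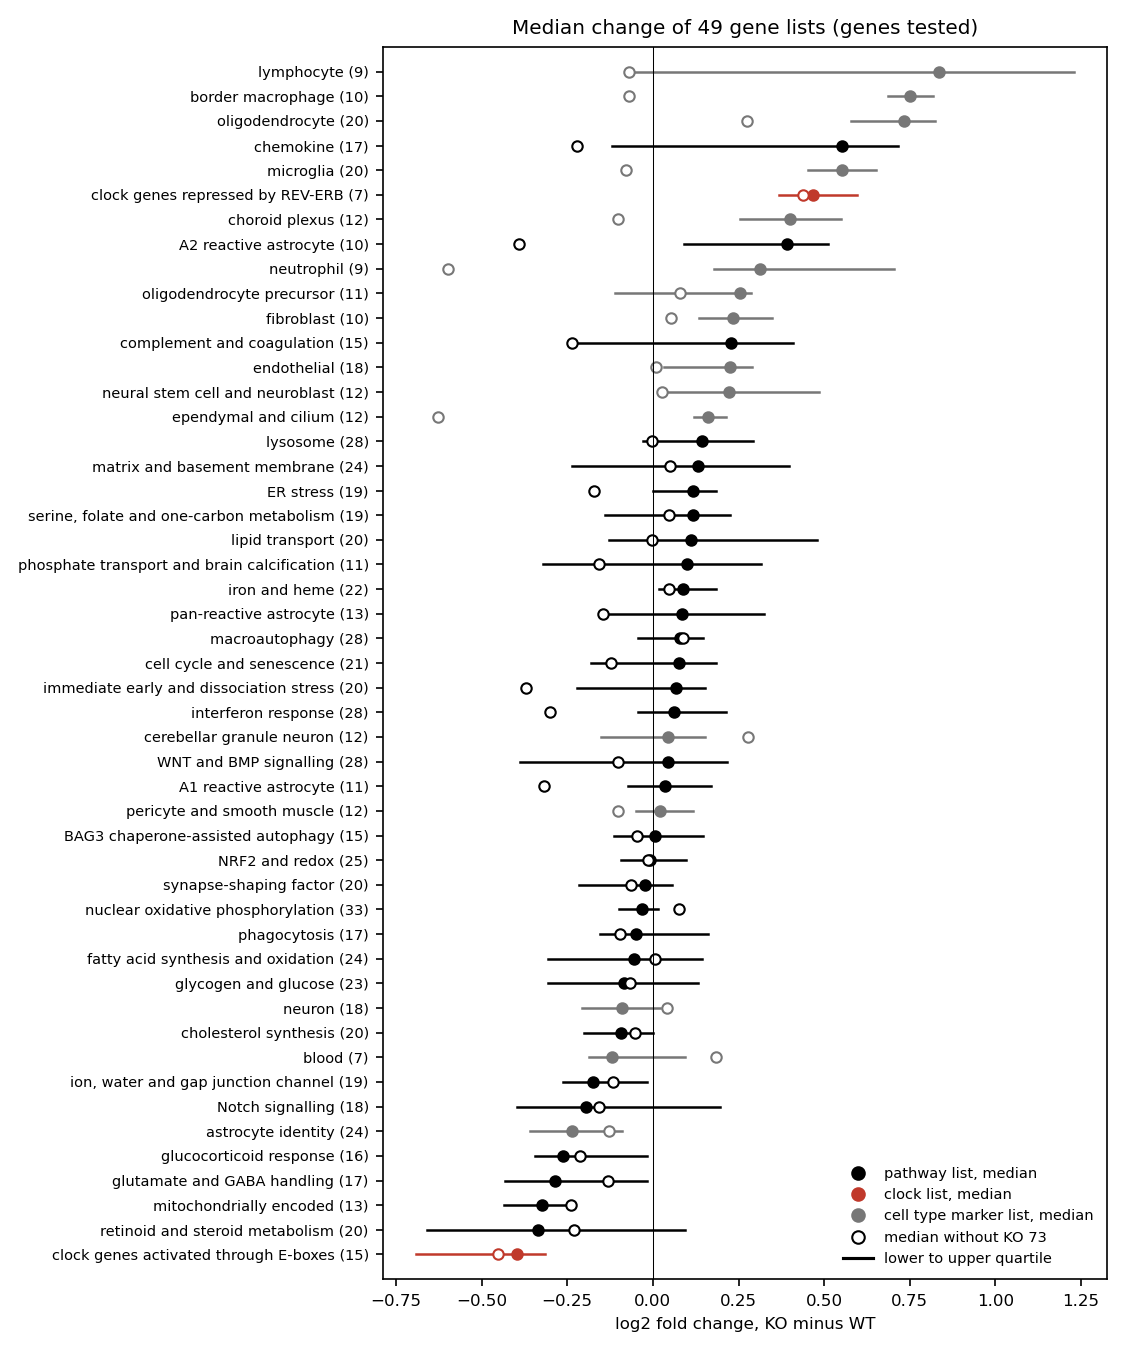
For each of 49 gene lists the filled point is the median log2 fold change (KO minus WT) of its tested genes, the line spans the quartiles and the open point is the median without KO 73. With all 8 libraries the E-box clock list is lowest. Without KO 73 the REV-ERB list changes little, and microglia, border macrophage and lymphocyte markers return to near 0. Ependymal (-0.63) and neutrophil (-0.60) markers then fall below the E-box list (-0.45).

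The flowthrough libraries show where else the called genes were measured, as a description only, since they come from 4 of the same 8 mice. Both KO flowthrough libraries exceeded both WT ones for 20 of the 27 higher genes and the reverse held for 0, beside 17.1% and 16.5% of all genes in the 12-library table. Spon2, Cxcl5, Slc20a2, Gstm7, Pla2g3 and Mmp14 were among the 20. For Esr1, Arhgef3, Slc5a8, Cdkn1a, Tmed4, Npl and Dera the flowthrough groups overlapped. Of the 16 lower genes, 9 were lower in both KO flowthrough libraries and 2, Mfsd2a and D630003M21Rik, higher. The lower genes were all more abundant in WT astrocytes than in WT flowthrough (16 of 16, median ratio 3.82), beside a median ratio of 0.994 over all genes. Of the higher genes 24 of 27 were more abundant in KO astrocytes than in KO flowthrough (median ratio 2.14), the exceptions being Arhgef3, Dera and Npl. Each set was compared in the label where its calls made it high, which by itself favours ratios above 1. The median of 0.994 over all genes is for WT, and none is given for KO. A gene's ratio is the mean of a label's 4 astrocyte libraries over the mean of its 2 flowthrough libraries. It is therefore not paired by mouse. Capture ratios differed between the labels for some: Slc5a8 had an astrocyte to flowthrough ratio of 0.432 in WT and 4.83 in KO, and Esr1 0.364 and 1.41. Both genes were called as higher in KO astrocytes and overlapped in flowthrough, so a higher ratio in KO largely restates the call. The level of Slc5a8 in WT astrocytes was also low.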

How the data were processed

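RNA from captured astrocytes was measured by RNA-seq in 8 mice. Gene counts were deposited by the authors, with STAR 2.5.1a, featureCounts 1.4.6-p5, Subread, bcl2fastq and GRCm38 named, without roles, in the submitters' processing notes; no source states the strand setting or how reads matching several genes were counted. The deposited CPM and RPKM are, checked on the files, the count scaled to the library total and that CPM per kilobase of exon, and they entered no test. Of 41388 gene IDs, 40254 had a symbol. Counts were tested with edgeR 4.0.16 (R 4.3.3; TMM scaling, filterByExpr, quasi-likelihood test, 6 residual degrees of freedom, Benjamini-Hochberg adjustment over 18527 genes, called at an adjusted p under 0.05). The CPM printed are TMM-scaled. The script was tested on simulated data. Alternatives were other scalings, filters, tools (DESeq2 1.42.0, limma 3.58.1), covariates and libraries left out. Fold changes are log2, KO minus WT, with standard errors. Total counts of 38691406 to 50120754 per library set the precision, and genes under 1 CPM are the least precise.

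The comparison, its members and the gene lists were chosen with earlier results of these data known. Named by rule were Arntl, all called genes, all clock genes, up to 5 genes per list with the smallest p, Aldh1l1 with Slc41a3, and the 6 genes next outside the threshold; a few genes these rules take in are not reported here. Role groups, neighbouring genes such as Klf15, Vdac3, Ap3m2, Sox3 and the Nat8 family, and the printed stretches were chosen after their values were seen, as was the marker-term alternative. Motifs were matched as letters on both strands of RefSeq promoters. Flowthrough libraries were scaled with the astrocyte libraries in one 12-library table and compared without a test, apart from the alternative fit of all 12.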

Additional observations from a re-analysis of the deposited data

Results flagged for a closer look

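Among 258 groups of 4 libraries (129 genes, KO and WT apart), 11 held a library far from the other 3, by a gap over the critical value of Dixon's test, and chance alone gives about 1 in 20 groups. In KO 73, Slc20a2 was low at 95.8 CPM (the others 128.5 to 132.4) and Cyp4f14 low at 4.93 CPM (11.5 to 12.2), while Nid2 was high at 7.40 CPM (3.46 to 3.98). In KO 62, Ap3m2 was high at 137 CPM (104.7 to 106.8). In WT 56, Arhgef3 was low at 11.6 CPM (14.7 to 15.1) and Lfng high at 14.2 CPM (9.75 to 10.3). In WT 57, 3 genes were low: St3gal4 at 36.1 CPM (47.9 to 50.2), Dera at 10.1 CPM (11.4 to 11.5) and Lrp4 at 152 CPM (159 to 160.5). In WT 64, Cry1 was high at 7.21 CPM (4.58 to 5.02) and Tsc22d3 high at 1207 CPM (696 to 762).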

How the results depend on the processing

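The 43 calls became 28 with library size alone as the scaling (21 higher, 7 lower, against 27 and 16), 160 with DESeq2 (75 higher, 85 lower), 75 at an adjusted p of 0.10 (42 higher, 33 lower), 26 with a term for the libraries with Xist counts and 136 with the marker term. Leaving out 1 library gave 12 (without KO 132) to 37 (without KO 73) calls: 17 without KO 60, 21 without KO 62, 22 without WT 56, 16 without WT 57 and 20 without WT 64 or WT 78. Counts stayed within 1.5 times of 43 with RLE size factors (43), no filter (50, 40 shared), a CPM of at least 1 (48, 42 shared), limma-voom (31, 29 shared), without KO 73 and WT 78 together (36, 29 shared) and with all 12 libraries (45, 34 shared). The cause of these differences was not tested. Over the called genes and these settings, no sign changed, 271 values missed the threshold and 502 passed. Signs changed for 2 of the other genes reported here: Cry2 (0.00208 without KO 73 and WT 78 together, 0.00382 with the marker term) and Aldh1l1 (from -0.587 without KO 62 to 0.0285 without KO 73, 0.0921 without both, 0.0625 with the marker term). No paired analysis was possible because the KO and WT astrocyte libraries share no mouse numbers. With 4 libraries a group and a biological coefficient of variation of 32.9%, a change that did not pass is not shown to be absent.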
